A study of Mus musculus with 6 samples.

Results

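The interleukin-6 (IL-6) family and its signaling route were examined in kidneys injured by cisplatin, with and without the ion channel TRPM2. The members were the 10 genes named Il6, Lif, Il11, Osm, Osmr, Lifr, Il6ra, Il6st, Stat3 and Socs3, each found by its name in 1 row of the 54532 genes of the deposited tables. RNA from the kidneys of 3 WT mice (numbered 1, 2 and 3) and 3 Trpm2-/- mice (numbered 1, 2 and 4) was sequenced. The question was how gene expression differs between the genotypes once the kidney is injured. All mice, WT included, had received cisplatin at 18 mg/kg and were examined at 72 h, so these libraries hold no uninjured kidney. The differences below are between genotypes after cisplatin. Whether they were present before it, or arose in the response to it, cannot be told apart. According to the labels the strain is C57BL/6J and the age 6 to 8 weeks, while the methods of the study give an older range and male mice. No promoter or Cre that would limit the deletion to a cell type is named for the Trpm2-/- mice, and according to the methods the allele lacks exons for part of the membrane-spanning region, so that no working channel forms. The methods give Shanghai SLAC Laboratory as the source of WT mice and the University of Leeds as that of Trpm2-/- mice. No littermate controls are described, so origin and genotype cannot be told apart. Each library is taken here as 1 mouse, which the labels do not state, and p-values measure the spread between these libraries.

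Cytokines of the IL-6 family share the receptor chain gp130, which Il6st encodes, and each cytokine brings gp130 together with a receptor chain of its own. In the mouse, LIF binds through LIFR, oncostatin M (OSM) mainly through OSMR, IL-6 through IL6RA and IL-11 through IL11RA1. The joined receptors activate JAK kinases, which phosphorylate STAT3. STAT3 then turns on target genes, among them Socs3, whose product binds gp130 and shuts the signal off. The family is best known for switching on acute-phase proteins in the liver, and tubule cells respond to it as well. RNA levels show how much of each component is transcribed and retained, not how much STAT3 is phosphorylated.

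Between the genotypes, Lif and Osmr rose in Trpm2-/- kidneys to more than 2 times their WT level, and no tested member was called lower. Osmr increased 2.44-fold (95% interval 1.87 to 3.18) and Lif 2.20-fold (1.58 to 3.06). The remaining 6 of the 8 members that could be tested did not pass the threshold, a p under 0.05 after Benjamini-Hochberg adjustment over 15816 genes in the quasi-likelihood test of edgeR. The 2 members called higher stand beside 4.74% of all genes tested that were called higher, and the 0 members called lower beside 7.28% called lower. Il6 and Osm had too few reads to be tested. An unadjusted p under 0.05 was reached by 5 of the 8, all of them higher in Trpm2-/- kidneys (Lif, Osmr, Il6ra, Il6st and Socs3), beside 14.0% of all genes that reached it in that direction. DESeq2 and limma, run as alternatives, called 0 members lower as well, and 0 members with a lower level reached an unadjusted p under 0.05, beside 14.3% of all genes. The fitted log2 fold change was above 0 for 7 of the 8, Stat3 being the exception, beside 51.6% of all genes, and the median was 0.58 beside 0.02. Il11 counts among the 7 and enters the median, though it passed the filter only through the group where it is higher. Under the rule of the study, an absolute log2 fold change over 1 with a p under 0.05, the same 2 members were higher, beside 3.5% of all genes, and 0 lower, beside 4.1%.

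The sequences upstream of 4 members are shown because they hold letters that the factors downstream of injury and of gp130 are known to bind. They come from RefSeq (GRCm38.p6), which gave 11 start sites for 9 of the 10 members, and the 250 bases before each start were searched. The motif TTCNNNGAA is the core that STAT factors bind and TGANTCA the element of AP-1 factors, and each reads the same on both strands. TGANTCA lay upstream of 1 start site each of Lif, Il6 and Il11, and 6.75% of all 32851 promoters hold it. TTCNNNGAA lay upstream of Socs3, and 7.02% of all promoters hold it. Its narrower form TTCCNGGAA, held by 0.913% of all promoters, was in none of the 11 windows, and the windows of Osmr, Lifr, Il6ra, Il6st and Stat3 held none of the 3 patterns. All 250 bases of the Osmr window lie in annotated exons of Osmr, so sequence upstream of its longest transcripts was not searched. Only bases outside annotated exons are printed, 5′ to 3′, with the motif in capitals.
Lif, chr11:4257318-4257556, plus strand, start at 4257568: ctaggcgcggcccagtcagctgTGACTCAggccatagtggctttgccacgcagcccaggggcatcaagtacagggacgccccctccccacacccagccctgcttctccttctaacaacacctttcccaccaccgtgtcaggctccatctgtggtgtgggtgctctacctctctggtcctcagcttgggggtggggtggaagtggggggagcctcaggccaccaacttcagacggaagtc
Il6, chr5:30012864-30013113, plus strand, start at 30013114: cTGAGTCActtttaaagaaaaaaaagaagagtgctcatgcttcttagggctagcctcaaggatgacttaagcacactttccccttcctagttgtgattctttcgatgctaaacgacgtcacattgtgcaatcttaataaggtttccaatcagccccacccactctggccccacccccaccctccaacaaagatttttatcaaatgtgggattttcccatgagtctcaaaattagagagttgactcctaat
Il11, chr7:4778142-4778391, minus strand, start at 4778141: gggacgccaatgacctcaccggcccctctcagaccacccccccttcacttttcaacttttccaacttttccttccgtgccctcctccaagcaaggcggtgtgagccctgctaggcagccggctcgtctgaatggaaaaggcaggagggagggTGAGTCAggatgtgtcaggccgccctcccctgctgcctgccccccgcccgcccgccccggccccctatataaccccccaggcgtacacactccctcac
Socs3, chr11:117969452-117969616, minus strand, start at 117969366: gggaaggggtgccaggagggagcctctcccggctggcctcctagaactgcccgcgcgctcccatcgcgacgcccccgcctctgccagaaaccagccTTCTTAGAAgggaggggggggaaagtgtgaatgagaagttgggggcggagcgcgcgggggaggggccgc
Counted back from the start, the first base of the motif lies at -228 in Lif, -249 in Il6, -98 in Il11 and -154 in Socs3. The Il11 and Socs3 stretches fall in introns of longer annotated transcripts. A match of letters is a description and shows no binding.

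Of the 4 ligands, Lif was by far the most abundant. Lif (chr11:4257557-4272514, plus strand) encodes leukemia inhibitory factor. Its level was 41.1, 25.3 and 36.7 CPM (reads as a share of the library, scaled for library composition) in WT 1, 2 and 3, and 62.9, 94.8 and 69.4 CPM in Trpm2-/- 1, 2 and 4. The lowest Trpm2-/- library thus lay above the highest WT library. The mean rose from 34.4 ± 8.18 to 75.7 ± 16.8 CPM (SD, n = 3 each), a log2 fold change of 1.14 (SE 0.212, adjusted p = 0.00968). With each library left out in turn the log2 fold change ranged from 0.94 to 1.28 and the adjusted p from 0.0152 to 0.0394.

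Il11 (chr7:4772373-4782857, minus strand) encodes interleukin-11, a cytokine made by injured epithelium and stroma. It was scarce, with 12, 7 and 9 reads in WT 1, 2 and 3 and 15, 15 and 13 reads in Trpm2-/- 1, 2 and 4. In CPM the WT libraries held 0.740, 0.450 and 0.552 and the Trpm2-/- libraries 0.918, 1.02 and 0.809, and the groups did not overlap. Past the cutoff of the filter (0.622 CPM before scaling) were 1 WT library and 3 Trpm2-/- libraries, so Il11 could be tested only through the group where it is higher. The difference did not pass the test (log2 fold change 0.65, 95% interval -0.33 to 1.63, adjusted p = 0.373), so at this depth a decrease of 0.33 and an increase of 1.63 on the log2 scale both remain within the interval. The table gives Il11 a length of 2012 bases, whereas the merged exons of the annotation used here sum to 2081.

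Il6 (chr5:30013114-30019981, plus strand), the cytokine that names the family, was near the limit of detection. It had 0, 1 and 1 reads in WT 1, 2 and 3 and 3, 3 and 4 reads in Trpm2-/- 1, 2 and 4. The 10 reads over the Trpm2-/- libraries against 2 over the WT libraries give a ratio of 5.49 per read sequenced, with an exact 95% interval of 1.17 to 51.5 that covers counting error only. Osm (chr11:4236420-4241026, plus strand) encodes oncostatin M, which leukocytes produce. Its reads were 0, 0 and 4 in WT 1, 2 and 3 and 9, 0 and 3 in Trpm2-/- 1, 2 and 4, so the groups overlapped and Trpm2-/- 2 had none. Pooled over libraries, 12 against 4 reads give a ratio of 3.29 (0.998 to 14). A count of 0 in a library allows up to 3 reads, which is 0.184 to 0.205 CPM in these libraries.

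Compared per transcript length, in FPKM (fragments scaled by gene length and library size), Lif supplied nearly all RNA of the 4 ligands. Their summed level was 8.60, 5.30 and 7.72 FPKM in WT 1, 2 and 3 and 13.4, 19.6 and 14.7 FPKM in Trpm2-/- 1, 2 and 4. Between 94.9% and 97.3% of that sum was Lif in each library. Clcf1, a gp130 ligand outside the 10 members, was more abundant than Lif in every library, at 28.5, 19.1 and 22.4 FPKM in the WT libraries and 20, 34.7 and 31.0 FPKM in the Trpm2-/- libraries, and it overlapped between genotypes (log2 fold change 0.28, adjusted p = 0.442). Osm and Lif are neighbors on chromosome 11, 16530 bases apart with 0 protein-coding genes between them.

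**Figure D1:**
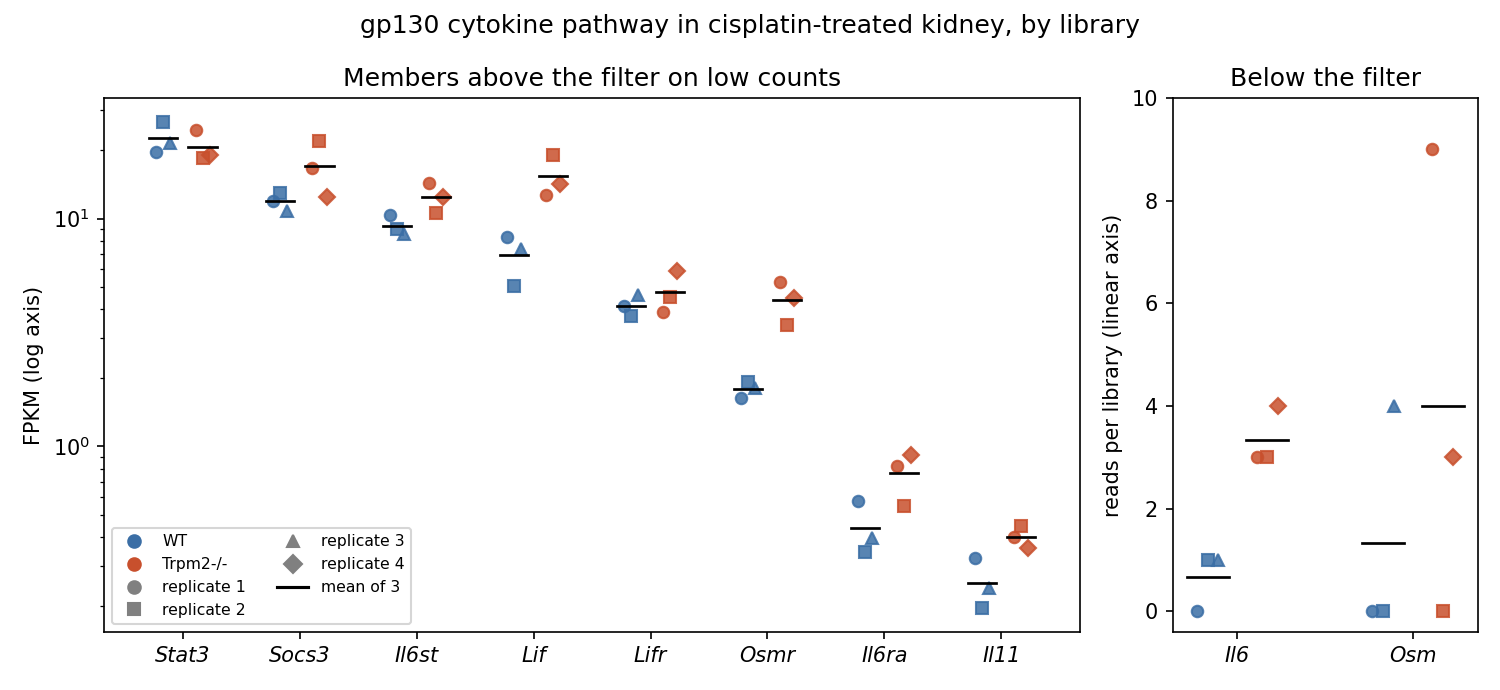
Levels of the members by library, in FPKM on a log axis for the 8 members above the filter on low counts, and in reads on a linear axis for Il6 and Osm. Points are libraries and bars the mean of 3; Lif, Osmr, Il6st and Il11 separate by genotype, Il6ra, Lifr, Stat3 and Socs3 overlap, and Il6 and Osm stay between 0 and 9 reads.

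Among the receptors, Osmr was the one called. Osmr (chr15:6813577-6874969, minus strand) encodes the chain that pairs with gp130 to bind oncostatin M. Its level was 22.6, 26.6 and 25 CPM in WT 1, 2 and 3 and 72.6, 47.1 and 61.2 CPM in Trpm2-/- 1, 2 and 4. All 3 Trpm2-/- libraries were above all 3 WT libraries, and the WT values lay close together. The mean rose from 24.8 ± 2.00 to 60.3 ± 12.8 CPM (SD, n = 3 each), a log2 fold change of 1.28 (SE 0.172, adjusted p = 0.00298). It ranged from 1.13 to 1.43 with each library left out in turn, with adjusted p between 0.0061 and 0.0161.

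Lifr (chr15:7090614-7197489, plus strand) encodes the chain that binds LIF, and lies 215644 bases from Osmr with 0 protein-coding genes between. It measured 50.8, 45.7 and 56.8 CPM in WT 1, 2 and 3 and 47.6, 56.0 and 71.3 CPM in Trpm2-/- 1, 2 and 4. The groups overlapped, with only Trpm2-/- 4 above the WT range. The log2 fold change was 0.19 (SE 0.168, 95% interval -0.19 to 0.57, adjusted p = 0.504), and 0.03 without Trpm2-/- 4.

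Il6ra (chr3:89864059-89913196, minus strand) encodes the chain that binds IL-6. It was low, at 5.67, 3.41 and 3.93 CPM in WT 1, 2 and 3 and 8.08, 5.39 and 8.97 CPM in Trpm2-/- 1, 2 and 4, and Trpm2-/- 2 lay below WT 1. Its log2 fold change of 0.79 (SE 0.297, 95% interval 0.12 to 1.45) had an adjusted p of 0.117 and was not called. A 242-base stretch of its exons overlaps the antisense gene Gm42809, which had 22 reads in all libraries together.

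Il6st (chr13:112464070-112510086, plus strand) encodes gp130, the chain common to the family. It measured 132, 114 and 109 CPM in WT 1, 2 and 3 and 181, 134 and 155 CPM in Trpm2-/- 1, 2 and 4. The groups did not overlap, though Trpm2-/- 2 was only just above WT 1. The log2 fold change of 0.40 (SE 0.150, 95% interval 0.06 to 0.74) had an adjusted p of 0.114 and was not called. In all, 4 of the 8 tested members (Lif, Il11, Osmr and Il6st) had every Trpm2-/- library above every WT library, beside 16.7% of all genes tested. Of these, Il11 could be tested only through the group where it is higher.

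**Figure D2:**
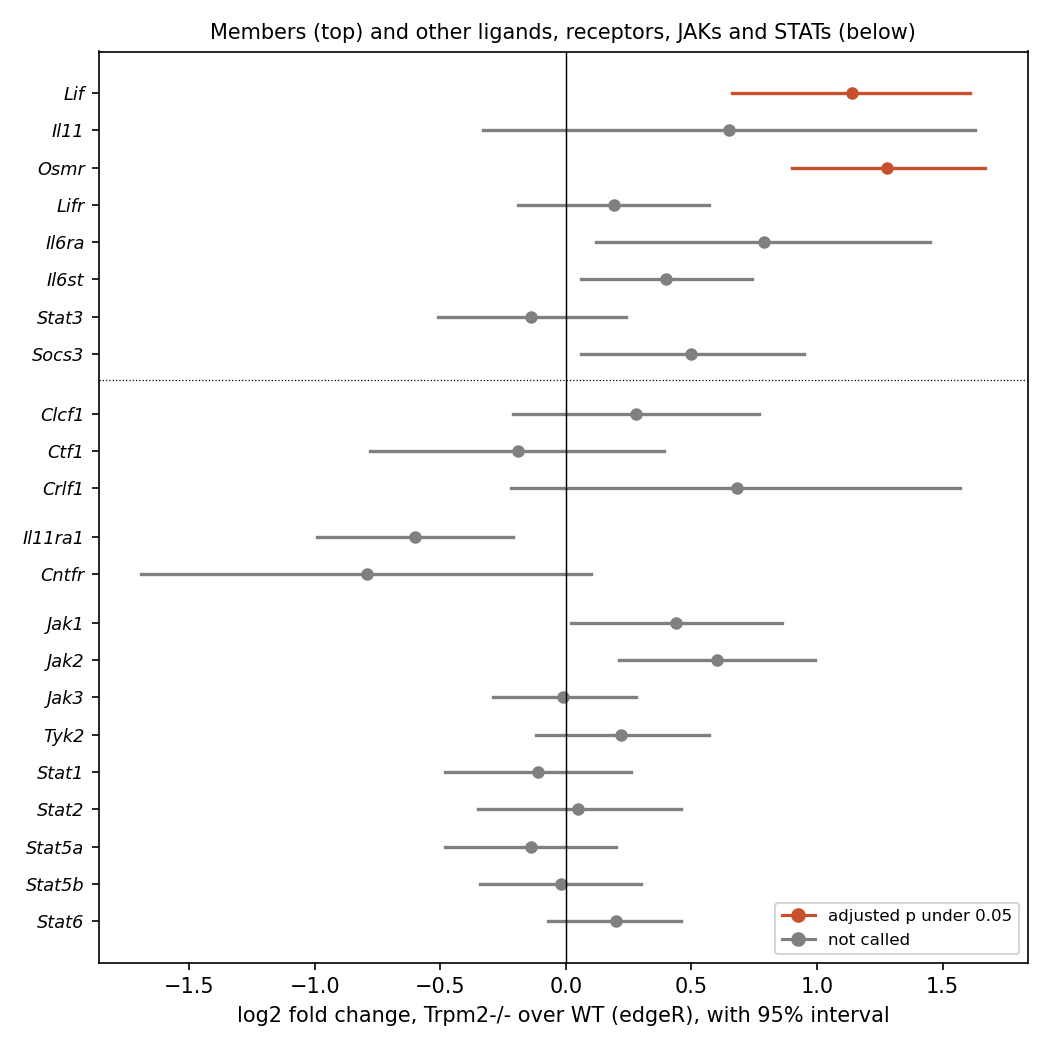
Log2 fold change of Trpm2-/- over WT with 95% intervals from edgeR, for the 8 tested members above the dotted line and for the other gp130 ligands, receptors, JAK kinases and STATs that passed the filter below it. Osmr (1.28) and Lif (1.14) are the 2 genes at an adjusted p under 0.05, and the interval of Il11 is the widest among the members.

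OSMR and LIFR are alternative partners of gp130, so their RNA was compared within each library by the ratio of FPKM. Osmr over Lifr was 0.397, 0.517 and 0.392 in WT 1, 2 and 3 and 1.36, 0.749 and 0.764 in Trpm2-/- 1, 2 and 4. Osmr thus stood below Lifr in each WT library and above it in 1 Trpm2-/- library. The mean ratio was 0.435 ± 0.071 in WT and 0.957 ± 0.347 in Trpm2-/- kidneys (SD, n = 3 each), a difference of 1.09 in log2 ratio. By a two-sided exact permutation test over the libraries p was 0.1, the smallest that 3 against 3 can give. The groups did not overlap, and the mean difference without Trpm2-/- 1, the highest library, was the lowest of those with 1 library left out, at 0.81.

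Against gp130 itself, Osmr over Il6st was 0.157, 0.213 and 0.210 in WT 1, 2 and 3 and 0.367, 0.323 and 0.362 in Trpm2-/- 1, 2 and 4, again without overlap (log2 difference 0.87, exact permutation p = 0.1). Lifr over Il6st overlapped between genotypes (log2 difference -0.22, exact permutation p = 0.6), as did Il6ra over Il6st (0.39, exact permutation p = 0.2). These 3 ratios and Socs3 over Stat3, below, were computed beside Osmr over Lifr, and none of the 5 can reach 0.05 in this design, before or after adjustment.

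**Figure D3:**
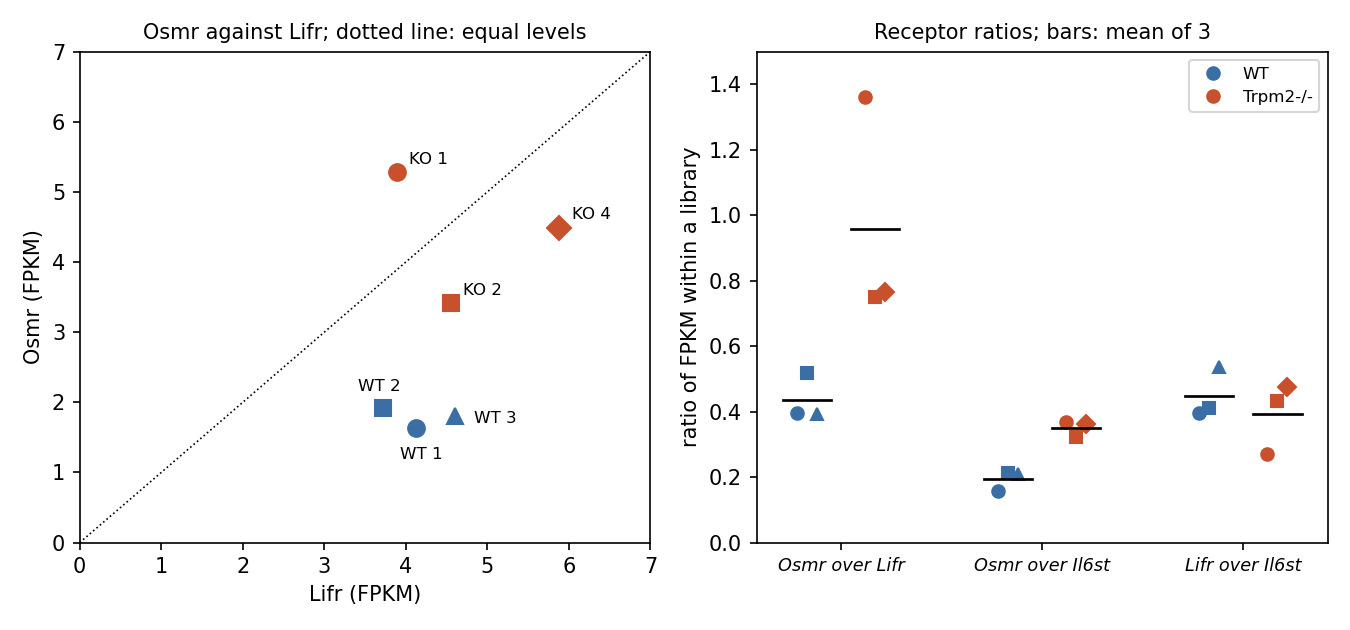
Left, FPKM of Osmr against FPKM of Lifr in each library, with a dotted line of equal levels; only Trpm2-/- 1 (KO 1) lies above the line. Right, ratios of FPKM within a library, with bars for the mean of 3; Osmr over Lifr averages 0.435 in WT and 0.957 in Trpm2-/- kidneys, whereas Lifr over Il6st overlaps.

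Stat3 (chr11:100885098-100939540, minus strand) encodes the transcription factor that gp130 activates and was the most abundant member. Its level was 214, 288 and 234 CPM in WT 1, 2 and 3 and 264, 201 and 204 CPM in Trpm2-/- 1, 2 and 4. The groups overlapped, and the log2 fold change was -0.14 (SE 0.167, 95% interval -0.51 to 0.24, adjusted p = 0.637). Its last exonic bases overlap Stat5a on the other strand over 72 bases, which is 0.76% of its exonic length.

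Socs3 (chr11:117966079-117970047, minus strand) encodes the feedback inhibitor of gp130. It measured 39.6, 43.0 and 35.7 CPM in WT 1, 2 and 3 and 54.7, 72.5 and 40.7 CPM in Trpm2-/- 1, 2 and 4. Trpm2-/- 1 and 2 were above the WT range, and Trpm2-/- 4 lay within it. The log2 fold change was 0.50 (SE 0.198, 95% interval 0.06 to 0.95, adjusted p = 0.13). Whether Socs3 is called turns on 1 library and on the filter, since it was 0.70 (adjusted p = 0.0296) without Trpm2-/- 4 and 0.49 (adjusted p = 0.0338) without a filter on low counts. Socs3 over Stat3 in FPKM was 0.611, 0.492 and 0.503 in WT 1, 2 and 3 and 0.684, 1.19 and 0.657 in Trpm2-/- 1, 2 and 4. The ratio did not overlap between genotypes (log2 difference 0.61, exact permutation p = 0.1).

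In WT kidneys the order of levels was Stat3 (22.5 ± 3.55 FPKM), Socs3 (11.9 ± 1.13), Il6st (9.35 ± 0.979), Lif (6.91 ± 1.65), Lifr (4.15 ± 0.440), Osmr (1.79 ± 0.142), Il6ra (0.439 ± 0.121), Il11 (0.253 ± 0.0645), Osm and Il6 (SD, n = 3). Of neighbors in this order, only the ranges of Osm and Il6 overlapped. In Trpm2-/- kidneys Lif (15.3 ± 3.34 FPKM) stood before Il6st (12.4 ± 1.91), and the ranges of Stat3, Socs3, Lif and Il6st overlapped from each to the next. Lifr (4.77 ± 1.01) and Osmr (4.39 ± 0.938), which were apart in WT kidneys, overlapped in Trpm2-/- kidneys. Il6ra (0.764 ± 0.194) and Il11 (0.402 ± 0.0445) remained apart from their neighbors.

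As a description of which genes varied as Osmr did, the highest Pearson correlations of log2 CPM over the 6 libraries, among 13011 genes of at least 1 CPM on average, were those of Mroh2a (0.997), Rab22a (0.995), Agpat4 (0.994), Zfp26 (0.994) and Jmjd1c (0.993). The 6 points fall in 2 genotypes, which both genes of a pair share. For Lifr they were 6-Sep (0.99, a symbol that stands as a calendar date in the table), Gimap3 (0.99), Clk3 (0.985), Pip4k2a (0.983) and Pi16 (0.983), and Trpm2-/- 4 was the highest library for each of these 5, as it was for Lifr. A correlation does not measure the size of a change. The 5 genes named for Osmr had log2 fold changes of 0.99, 0.13, 0.41, 0.82 and 0.88 in the order given, and only Zfp26 and Jmjd1c were called.

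The rest of the pathway was described from a list of 43 genes, of which 35 passed the filter on low counts. None was called by edgeR in either direction, beside 4.74% of all genes called higher and 7.28% lower. At an unadjusted p under 0.05 there were 5 higher and 1 lower, beside 14.0% and 14.3% of all genes, and the median log2 fold change was 0.20, beside 0.02 over all genes tested. DESeq2 called 1 higher and 1 lower. Of the other ligands and receptors, 3 of 8 and 2 of 4 could be tested, and Il27 had 0 reads in every library. The 9 tested JAK kinases and other STATs had a median of 0.05, and the 21 feedback proteins and signal modifiers, with the SOCS, PIAS and phosphatase genes, had a median of 0.22.

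Genes close to the threshold are named here after their values were seen. Jak2, a kinase bound to gp130, measured 35.9, 29.4 and 29.1 CPM in WT 1, 2 and 3 and 59.2, 42.9 and 40.6 CPM in Trpm2-/- 1, 2 and 4. The groups did not overlap (log2 fold change 0.60, SE 0.173, adjusted p = 0.0533), and the gene was called without Trpm2-/- 4 (adjusted p = 0.0424). Il11ra1, the receptor for IL-11, was lower in every Trpm2-/- library, at 55.3, 63.5 and 72.6 CPM in WT 1, 2 and 3 and 32.7, 48.4 and 45.5 CPM in Trpm2-/- 1, 2 and 4. Its log2 fold change was -0.60 (SE 0.175, adjusted p = 0.0546), and it was called without Trpm2-/- 2 (adjusted p = 0.0428). Of its 75-base transcript windows, 35.95% are also found in Il11ra2 or Gm13305, so its count is uncertain. Pias3, an inhibitor of STAT3, had a log2 fold change of 0.46 (adjusted p = 0.0617).

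Targets of STAT3 were described from a list of 30 genes, all of which were tested. Of these, 4 were higher, 0 lower and 26 not called, beside 4.74% of all genes called higher and 7.28% lower, and the median log2 fold change was 0.11, beside 0.02 over all genes. At a mean of at least 1 CPM, which leaves out Hgf, 3 were called. DESeq2 and limma also called 0 lower. At an unadjusted p under 0.05 there were 9 higher and 0 lower, beside 14.0% and 14.3% of all genes. Many other factors drive these genes too. Timp1, an inhibitor of matrix-degrading proteases, measured 13, 13.5 and 12.4 CPM in WT 1, 2 and 3 and 23.8, 24.6 and 22.4 CPM in Trpm2-/- 1, 2 and 4. The libraries of each genotype lay close together, and it rose by 0.87 on the log2 scale (SE 0.147, adjusted p = 0.00683).

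Myc, a driver of growth and proliferation, measured 45.3, 47.9 and 48.6 CPM in WT 1, 2 and 3 and 68.2, 74.6 and 80.0 CPM in Trpm2-/- 1, 2 and 4. It rose by 0.65 (SE 0.122, adjusted p = 0.00981), and the call was lost without WT 2 (adjusted p = 0.0585) or WT 3 (0.0581). Plaur, the urokinase receptor, rose from 71.3 ± 7.19 to 104 ± 8.22 CPM (SD, n = 3 each, log2 fold change 0.55, adjusted p = 0.0279), and was not called without WT 2 (adjusted p = 0.136), WT 3 (0.158) or Trpm2-/- 2 (0.0523). Hgf, a growth factor for tubule cells, had 2, 5 and 0 reads in WT 1, 2 and 3 and 12, 17 and 30 reads in Trpm2-/- 1, 2 and 4. The groups did not overlap, and the pooled ratio was 9.25 (exact 95% interval 4.22 to 24.0, counting error only). Hgf was called (adjusted p = 0.035), but leaving out any 1 of the 6 libraries ended the call (adjusted p 0.0517 to 0.118), and its fitted fold change depends on few WT reads. With 0 WT libraries and 3 Trpm2-/- libraries past the cutoff of the filter (0.622 CPM before scaling), Hgf could be tested only because it was higher in Trpm2-/- kidneys.

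The next STAT3 targets by p were not called, namely Icam1 (log2 fold change 0.52, adjusted p = 0.072), Sbno2 (0.44, 0.105), Fosl2 (0.50, 0.123) and Tnfrsf12a (0.48, 0.158). Sbno2 was called without Trpm2-/- 1 (adjusted p = 0.0298) and Fosl2 without Trpm2-/- 4 (adjusted p = 0.0427). Under the rule of the study, Hgf alone of the 30 was higher, beside 3.5% of all genes.

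Acute-phase genes, the classical output of IL-6 signaling in liver, gave 2 higher, 1 lower and 21 not called among the 24 of 30 that were tested, beside 4.74% of all genes called higher and 7.28% lower, with a median log2 fold change of 0.31 beside 0.02 over all genes. At an unadjusted p under 0.05 there were 7 higher and 1 lower, beside 14.0% and 14.3% of all genes. Serpina3n, a protease inhibitor, measured 9.87, 14.8 and 10 CPM in WT 1, 2 and 3 and 47.7, 61.7 and 22.2 CPM in Trpm2-/- 1, 2 and 4. It rose by 1.92 on the log2 scale (SE 0.339, adjusted p = 0.00765), and Trpm2-/- 4 was the lowest of its group. Cp, which encodes the copper-binding ferroxidase ceruloplasmin, measured 143, 138 and 188 CPM in WT 1, 2 and 3 and 416, 412 and 231 CPM in Trpm2-/- 1, 2 and 4. It rose by 1.17 (SE 0.233, adjusted p = 0.0128), and the call was lost without WT 2 (adjusted p = 0.066).

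Lbp, which encodes the lipopolysaccharide-binding protein, fell by 1.22 on the log2 scale (adjusted p = 0.0266), from 5.59 ± 1.06 to 2.4 ± 0.37 CPM (SD, n = 3 each). The call held without Trpm2-/- 1 (adjusted p = 0.0419) and was lost when any other library was left out (adjusted p 0.0505 to 0.127). Itih4 (log2 fold change 1.63), Cd14 (0.82), Serpina3m (2.78), Steap4 (1.44) and Fgb (1.25) were not called (adjusted p 0.0704 to 0.135). Cd14, Serpina3m and Fgb were called without Trpm2-/- 4 (adjusted p 0.0134 to 0.0181). Under the rule of the study 6 acute-phase genes were higher and 1 lower, beside 3.5% and 4.1% of all genes. Serpina3m is among these 6 and among those higher at an unadjusted p under 0.05. With 1 WT library and 2 Trpm2-/- libraries past the cutoff of the filter, it could be tested only through Trpm2-/- 1 and 2, where it was high. Trpm2-/- 4, with 5 reads, lay within the WT range of 2 to 17 reads.

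**Figure D4:**
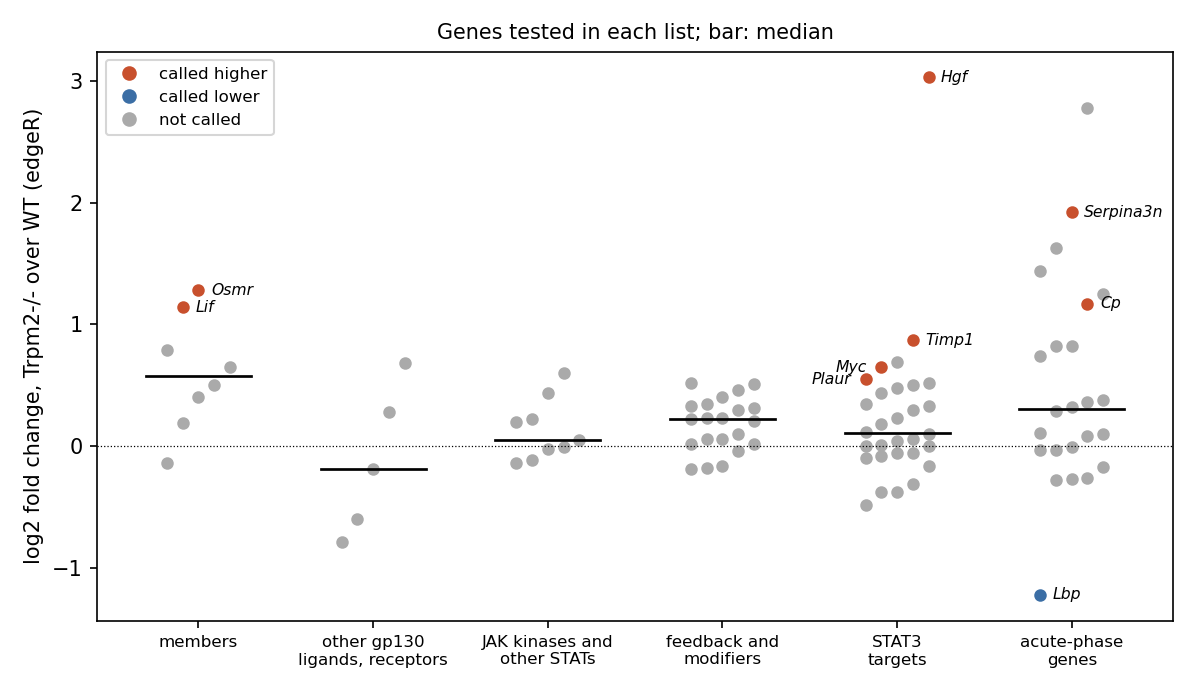
Log2 fold change of Trpm2-/- over WT for each tested gene of 6 groups, with a bar at the median of each group and the called genes named. The members have a median of 0.58 and the acute-phase genes the widest spread, from Lbp (-1.22, called) to Serpina3m (2.78, not called).

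The libraries held 14053307 to 17150089 reads on genes. Trpm2 itself had 5, 5 and 27 reads in WT 1, 2 and 3 and 10, 16 and 20 reads in Trpm2-/- 1, 2 and 4, and since a gene count also covers exons that the allele keeps, it does not check the labels. Reads on mitochondrial genes were 4.43% to 4.72% in WT and 7.91% to 11.0% in Trpm2-/- libraries. In whole kidney, fewer cells of a type and less RNA per cell cannot be told apart, and marker lists moved with genotype, beside 4.74% of all genes called higher and 7.28% lower. All 8 markers of proximal tubule were lower in Trpm2-/- kidneys (summed level 7690 to 10100 CPM in WT, 2380 to 3770 CPM in Trpm2-/-). Of 7 markers of injured tubule 2 were higher (3120 to 3730 CPM, 4200 to 5420 CPM), and of 7 tested fibroblast markers 1, Vim, was higher (146 to 162 CPM, 206 to 347 CPM). Vim alone measured 59.3 to 82 CPM in WT and 146 to 180 CPM in Trpm2-/- libraries. Every other fibroblast marker overlapped between genotypes. Of 10 macrophage markers 2, C1qa and C1qc, were lower (112 to 156 CPM, 93.5 to 147 CPM), though both overlapped between genotypes. An unadjusted p under 0.05 was reached by 4 of the 10, beside 14.0% of all genes higher and 14.3% lower. C1qa, C1qb and C1qc were lower, whereas Lyz2 was higher (log2 fold change 1.35), with every Trpm2-/- library above every WT library. Of 5 tested neutrophil markers 0 were called (3.52 to 15.1 CPM, 7.92 to 13.8 CPM, 1 with an unadjusted p under 0.05). Of 4 tested markers of the loop and distal tubule 1, Umod, was lower (1030 to 2250 CPM, 364 to 1090 CPM), and of 8 endothelial markers 1, Plvap, was lower (127 to 199 CPM, 68.5 to 255 CPM, Trpm2-/- 4 being the highest). Of 5 tested urothelium markers 2, Upk3a and Psca, were lower (14.1 to 77.9 CPM, 8.63 to 12.2 CPM), and the sums did not overlap, with WT 1 the highest. With 3 WT libraries and 0 Trpm2-/- libraries past the cutoff of the filter, Upk3a could be tested only through WT, the group where it is higher. Of 5 podocyte markers 0 were called (130 to 173 CPM, 147 to 510 CPM, 3 with an unadjusted p under 0.05), and Trpm2-/- 4 was the highest. The sums of T cell markers (2.65 to 3.68 CPM, 2.49 to 6.76 CPM) and B cell markers (0.9 to 2.65 CPM, 1.25 to 1.98 CPM) overlapped. No marker of these lists was at 0 in every library. The part of these shifts in the values of Osmr, Lif and the other genes was not tested.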

How the data were processed

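The authors deposited whole-number read counts per gene and FPKM values for the same genes, 1 column per library. According to the study, RNA was isolated with Trizol and libraries were made with a NEBNext Ultra II kit. The submitters' processing notes name HISAT2 and StringTie, without versions, and build mm9. Gene positions in the tables equal those of GENCODE M21 on GRCm38 for 98.3% of the genes found there, so GRCm38 coordinates are given. The counting tool and strand setting are not given in the sources used here. FPKM divides by gene length and library size and was used to compare genes. A read of a member could rarely fit another gene: 0% of 75-base windows were shared for 9 members and 1.97% for Il6ra.

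The counts went into edgeR 4.0.16 under R 4.3.3 (filterByExpr, TMM, glmQLFit and glmQLFTest, genotype only, two-sided, Benjamini-Hochberg), which tested 15816 genes with a common dispersion of 0.0445. CPM uses TMM library sizes. SE is the absolute log2 fold change over the square root of F. Limma 3.58.1 and DESeq2 1.42.0 served as alternatives, and the steps were tested on simulated counts. No filter below means at least 1 read in any library.

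Genes named were the 10 members, called pathway genes, the 8 STAT3 targets and 8 acute-phase genes of smallest p, and the 5 genes most like Osmr and like Lifr Gm and Rik names excepted. The marker sums and Clcf1 stand beside them. The members and lists, made by hand from general knowledge, were chosen with earlier results of these data known.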

Additional observations from a re-analysis of the deposited data

How the results depend on the processing

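Lif and Osmr were called higher under all 16 alternatives (log2 fold change 0.94 to 1.28 and 0.94 to 1.43), which were other normalizations, filters, tests and pseudocounts, no mitochondrial genes, the replicate block and each library left out. Members called higher numbered 2 to 3 and lower 0 throughout, and the Osmr to Lifr difference was 0.78 to 1.24. Other pathway genes, with 0 higher and 0 lower as reported, gave 2 higher with upper quartile scaling, 2 higher and 1 lower without a filter, 1 higher at a mean of at least 1 CPM, 1 higher and 1 lower with DESeq2, and 0 to 1 each way with 1 library left out. STAT3 targets gave 6 higher without a filter, 5 with DESeq2, 3 with limma on FPKM, and 1 to 5 higher with 1 library left out (4 as reported). Acute-phase genes gave 7 higher without a filter, 4 with DESeq2, and 1 to 5 higher and 0 to 1 lower with 1 library left out (2 and 1 as reported). Apart from the changes in which genes and libraries enter, the cause was not tested.

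Only numbers 1 and 2 occur in both genotypes, and the sample titles do not say that they pair the mice. Same-numbered libraries had correlations of deviations from the group mean of 0.064 and -0.012. Differently numbered libraries of the 2 genotypes had -0.248 to 0.217, so these values cannot decide whether the numbers pair. With the replicate number as a block, 341 genes were higher and 661 lower, against 750 and 1152 without it. The library of each genotype whose number is not shared had a block to itself, so it carried no information on genotype. The block fit thus compared only WT 1 and 2 with Trpm2-/- 1 and 2. STAT3 targets higher then numbered 1 (Timp1), and acute-phase genes 5 higher and 0 lower. Cd14, Serpina3m and Fgb were gained and Myc, Plaur, Hgf and Lbp lost. No other call changed among the members and the genes named from the pathway, STAT3 target and acute-phase lists. Whether these changes come from the block itself or from the libraries that dropped out of the comparison was not tested.

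At 14053307 to 17150089 reads a library, Il6 and Osm lie at the limit of detection, and Il11 at 7 to 15 reads leaves a wide interval.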
